A study of Mus musculus with 2 samples.

Results

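The regions described here are the 261 peaks of a YTHDF2 RNA immunoprecipitation (RIP) that lay at transcript 5' ends in C2C12 myotubes. They were the peaks that the authors' gene table marked as touching a start codon or a 5' untranslated region (5' UTR) of a gene and not the stop codon of that gene, counted once each. Of them, 112 touched a start codon (start codon peaks) and 149 touched a 5' UTR but no start codon (5' UTR only peaks). They made up 16.9% (95% Wilson interval 15.1 to 18.9) of the 1541 peaks in that table, which came from a list of 9271. They belonged to 259 of the table's 1285 genes. C2C12 cells are mouse myoblasts, an established line whose cells stop dividing and fuse into myotubes once serum is lowered. The study held 1 YTHDF2 RIP library and 1 input library, both from wild-type, untreated myotubes of this single line and both with batch label 1. With 1 library a group there was no replicate error to compare a difference with, so no test was run and each value describes these libraries. An IgG control named in the design text was not analysed here.

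YTHDF2 is a cytoplasmic protein that binds N6-methyladenosine (m6A) in mRNA and recruits deadenylases, which shortens the life of the bound transcript. In most mRNAs m6A is densest near the stop codon and in the 3' UTR. A smaller share lies in the 5' UTR, where it has been tied to cap-independent initiation and where stress can bring YTHDF2 to it. The start codon itself is read best when a purine stands 3 bases before it and a G directly follows it (the Kozak context).

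The start codons of 8 of the 9 start codon peaks of highest fold enrichment, and of the 2 peaks of the class with the smallest q-value, are shown to place the signal on the transcript. They were read from the GRCm38 (mm10) reference on the strand of the gene, with the start codon in capitals.
Mtfmt (chr9:65435799-65435828, plus strand): ctgcgggccgaggtgATGctccttccgcgg
Coa6 (chr8:126422672-126422701, plus strand): ccactgcaggcaggaATGgcagccccttcc
Sclt1 (chr3:41742014-41742043, minus strand): aactaaaatatcgaaATGgccacagaaatc
Ngly1 (chr14:16249352-16249381, plus strand): ggccgcggcgcagccATGgcgtcggccaca
Haus6 (chr4:86611799-86611828, minus strand): ctgcccgtggaaagcATGagctcggcccgg
Lrif1 (chr3:106685071-106685100, plus strand): catcgcttggctgtcATGgctggcgggacc
Aasdhppt (chr9:4309422-4309451, minus strand): gaccgagccggtcgtATGgtgttccccgct
Zfp952 (chr17:32993223-32993252, plus strand): tggagaggacacagtATGcatcaaaagcag
Dcun1d5 (chr9:7184782-7184811, plus strand): cggggaaggcggaagATGccagtgaagaag
Haus3 (chr5:34168299-34168328, minus strand): aggagtagttaaaccATGagttgtggaaat
A purine stood 3 bases before the start codon in 9 of these 10, the exception being Aasdhppt, and a G followed it in 5. Over the start codon peaks whose reference transcript had enough 5' UTR, the purine was present in 91 of 109 (83.5%) and the G in 52 (47.7%). Both shares lay close to those of 20151 annotated protein-coding genes, 84.2% and 49.6%, which were taken whether expressed or not.

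The 10 most enriched start codon peaks ran from 7.28-fold to 11.4-fold and included genes of mitochondrial translation and respiration and of the centriole and spindle. Fold enrichment is the authors' own score, the ratio of RIP signal to input background at the peak summit, each with 1 added, and the RIP fragments and background behind it are given with it. Mtfmt, which formylates the initiator tRNA of mitochondrial translation, had 37 RIP fragments over a background of 2.00 and a fold enrichment of 11.4 (95% Poisson counting interval 8.15 to 15.6). Coa6, an assembly factor of cytochrome c oxidase, had 34 fragments over 2.00 and 10.5-fold (7.40 to 14.6). Sclt1, a component of the distal appendages of the centriole, had 58 fragments over 5.00 and 8.87-fold (6.77 to 11.4). The intervals of these 3 overlapped, so their order was within counting error. The peak at 8.69-fold (5.43 to 13.3), with 19 fragments, touched the start codon of Ngly1, a cytoplasmic peptide N-glycanase, and the 5' UTR of its divergent neighbour Oxsm, a mitochondrial fatty acid synthase. Haus6, a subunit of the augmin complex that seeds microtubules within the spindle, followed at 8.12-fold (6.12 to 10.6, 53 fragments). The rest of the leading 10 were Lrif1 at 7.83-fold, Aasdhppt, which attaches phosphopantetheine to acyl carrier proteins, at 7.82-fold, Cep76, which restrains centriole duplication, at 7.72-fold, Zfp952 at 7.53-fold and Txndc17, a thioredoxin-like protein, at 7.28-fold.

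Ranking by q-value instead brought forward peaks with more fragments. Dcun1d5, which promotes the neddylation of cullins, led with 164 fragments over a background of 29.0, a fold enrichment of 4.95 (4.23 to 5.77) and q = 2.06e-48, as the peak caller gave it. Haus3, a second subunit of augmin, followed with 121 fragments over 17 and 6.11-fold (5.08 to 7.28, q = 1.41e-43). Sclt1 (q = 9.17e-30) and Haus6 (q = 4.89e-25) were high by both measures. Gm10020 (6.99-fold, q = 5.52e-25) is a processed pseudogene without a coding transcript in the annotation used, so its start codon flag could not be placed. Whether fragments of its parent gene are counted there was not tested. At the low end stood Otud4, a deubiquitinase, at 1.51-fold (1.31 to 1.74), Atrnl1 at 1.54-fold (1.29 to 1.83) and the scaffold protein Spag9 at 1.58-fold (1.29 to 1.92), each with at least 99 fragments over backgrounds of 56.0 to 115.

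The most enriched 5' UTR only peaks rested on fewer fragments. Lpar4, a receptor for lysophosphatidic acid, had 19 fragments over the lowest background in the list, 1.08, and a fold enrichment of 8.69 (5.43 to 13.3). The membrane-associated guanylate kinase scaffold Mpp6 had 17 fragments and 7.83-fold (4.76 to 12.2), and its relative Mpp5, a cell polarity protein also known as Pals1, had 21 fragments and 6.96-fold (4.44 to 10.5). The zinc finger genes Zfp229 (7.40-fold, 16 fragments) and Zfp317 (7.27-fold, 25 fragments), the kinesin Kif26b (7.40-fold, 16 fragments) and Ccser2 (7.07-fold, 46 fragments) lay between them. B130006D01Rik at 6.77-fold, the olfactory receptor Olfr810 at 6.53-fold and the exocyst subunit Exoc3 at 6.43-fold closed the leading 10. Of these 10 peaks, 9 had fewer than 30 fragments, against 5 of the leading 10 start codon peaks. All 10 intervals overlapped one another.

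Ordered by q-value, the 5' UTR only class was led by peaks with 135 to 173 fragments. Mon2, a regulator of traffic between Golgi and endosomes, had 151 fragments over a background of 27.0 and 4.89-fold (4.15 to 5.73, q = 9.91e-44). Trip11, the golgin also called GMAP-210, had 135 over 31.0 and 3.83-fold (3.21 to 4.53, q = 1.87e-29). 2810474O19Rik (3.07-fold), the kinase Cdc42bpa, an effector of Cdc42 (3.14-fold), and Luc7l2, a protein associated with the U1 spliceosomal particle (3.29-fold), came next. The weakest members were the small GTPase Arf6 at 1.30-fold (1.14 to 1.47), the transcription factor Runx1 at 1.41-fold (1.21 to 1.62) and Arfgef1, an exchange factor for ADP-ribosylation factors, at 1.42-fold (1.20 to 1.67).

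**Figure D1:**
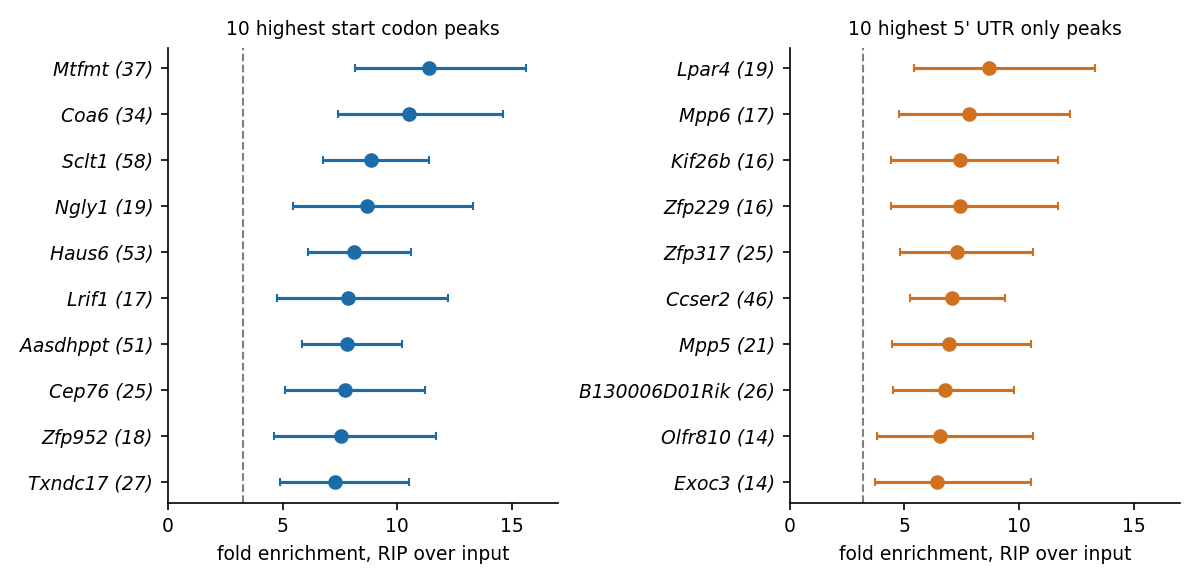
Fold enrichment of the 10 highest start codon peaks (left) and 5' UTR only peaks (right), with the RIP fragments at the summit in brackets after each gene. Points are the deposited values, bars are 95% Poisson counting intervals, and dashed lines are the class medians, 3.27 and 3.17, which lie below every interval shown.

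Taken over all members, both classes were enriched to about the same degree, and to the degree of the rest of the table. The median fold enrichment was 3.27 (quartiles 2.39 and 4.84) for start codon peaks and 3.17 (2.32 and 4.51) for 5' UTR only peaks. The other 1280 peaks of the table had a median of 3.25 (2.46 and 4.53). A fold enrichment of 4 or more was reached by 84 of 261 members, or 32.2% (26.8 to 38.1), against 33.2% of all peaks in the table and 59.6% of all 9271 peaks. The members' share was thus near that of the table and lower than that of the whole list. The whole list also had less input, with a median background of 5.00 against 15.0 in the members. By class the share at 4-fold or more was 34.8% (26.6 to 44.0) for start codon peaks and 30.2% (23.4 to 38.0) for 5' UTR only peaks, with overlapping intervals.

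Fold enrichment was lower at high than at low input background, in the members as in the other peaks of the table. At backgrounds under 2 the median was 5.81 for 10 start codon peaks, 6.38 for 14 5' UTR only peaks and 6.33 for 111 other peaks of the table. From 2 to under 4 it was 6.68 for 10 start codon peaks, no lower than under 2, and 4.97 and 5.38 for 17 5' UTR only and 79 other peaks. At backgrounds of 32 and over it was 2.01, 2.03 and 2.14. Between 4 and 8 start codon peaks had a median of 5.02 (quartiles 3.96 and 6.68, 18 peaks), 5' UTR only peaks 3.98 (3.61 and 4.82, 21 peaks) and other table peaks 4.51 (3.75 and 5.42). Peaks outside the table had medians of 6.10 under 2 and 5.38 from 2 to under 4. Theirs were 4.34 between 4 and 8 and 2.12 at 32 and over. The background is the denominator of the fold, so a rank by fold favours sites with little input. Whether input followed transcript level was not tested.

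**Figure D2:**
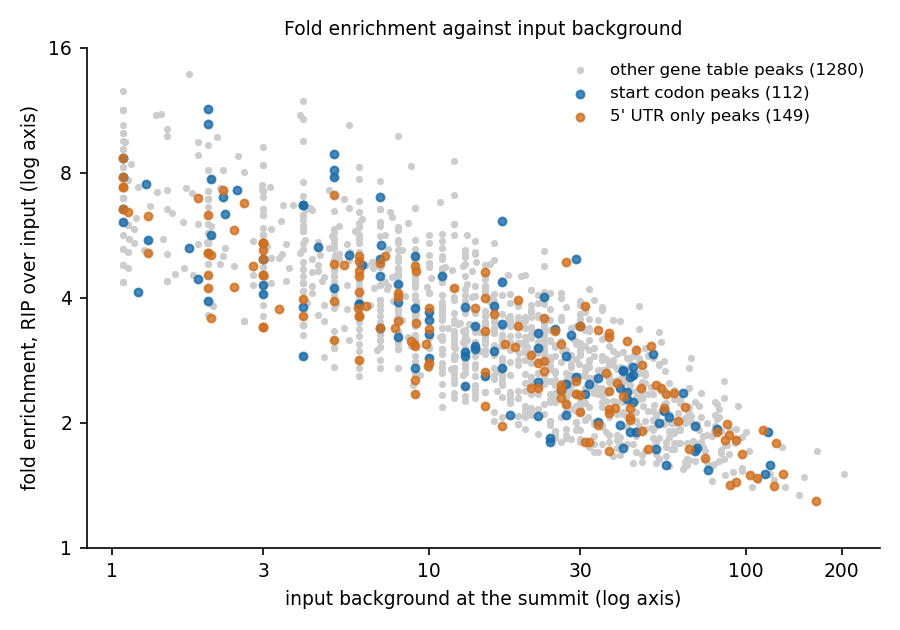
Fold enrichment (log axis) against the input background at the summit (log axis) for 112 start codon peaks, 149 5' UTR only peaks and 1280 other peaks of the gene table; each point is a peak. Both classes largely overlap the band of the other peaks. Members run from above 8-fold at the lowest backgrounds to 1.30-fold at a background of 166, under the lowest other peak at 1.34-fold.

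The peak centres of both classes lay mostly a short way inside the transcript, and most peaks did not cover its first base. Only peaks that touch a 5' UTR or start codon were counted, so this nearness follows in part from the rule. Peaks lying wholly upstream of a transcript could not enter. Positions refer to 1 coding transcript per peak, the one with the flagged element that shared most exon bases with the peak. Measured from that transcript's start, the median peak centre lay 240 bases downstream in start codon peaks (quartiles 168 and 346.5) and 235 in 5' UTR only peaks (132 and 320). Of 260 placed peaks, 203 (78.1%, 72.7 to 82.7) had their centre within the first 500 bases, and the first exon was the exon most overlapped in 235 (90.4%). The transcript start itself fell inside 33 of 149 5' UTR only peaks (22.1%, 16.2 to 29.5) and 10 of 111 start codon peaks (9.01%, 4.97 to 15.8). Bases upstream of the outermost annotated start of the gene were held by 23 of the 261 peaks (8.81%, 5.94 to 12.9). That share rose to 21.8% when only the transcript with the longest coding sequence was counted per gene. In Arfgef1, 288 of the 324 bases of the peak lay upstream, and in B130006D01Rik 317 of 447.

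**Figure D3:**
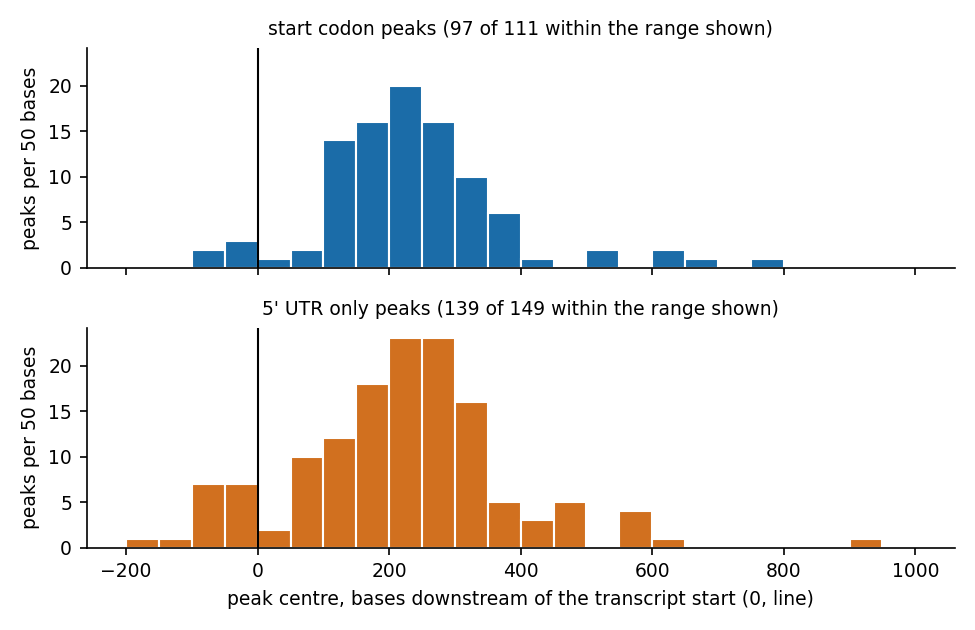
Number of peaks per 50 bases by the distance of the peak centre from the start of the reference transcript, for start codon peaks (top) and 5' UTR only peaks (bottom); positive values are downstream. Both distributions are highest between 200 and 300 bases, and 5' UTR only peaks have more centres upstream of 0 (16 of 149) than start codon peaks (5 of 111).

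The classes differed in the build of the transcript around them. The median 5' UTR was 219 bases in the transcripts of start codon peaks, 454 in those of 5' UTR only peaks and 150 in all 21670 protein-coding genes. The start codon lay in the first exon in 85.6% (77.9 to 90.9) of start codon transcripts, 35.6% (28.3 to 43.5) of 5' UTR only transcripts and 64.3% of all genes. A peak near the transcript start can reach the start codon only where the 5' UTR is short and unspliced, so these differences follow in part from how the classes are defined. At least 1 upstream AUG was present in 122 of 149 5' UTR only transcripts (81.9%) and 63 of 109 start codon transcripts (57.8%), against 53.1% of all genes. Per kb of 5' UTR the counts were 9.60 in the 5' UTR only class, 6.09 in the start codon class and 8.31 in all genes.

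A bidirectional layout was counted more often at start codon peaks than at 5' UTR only peaks, with intervals that did not overlap. A coding gene on the opposite strand started within 1000 bases at 21 of 111 start codon peaks (18.9%, 12.7 to 27.2) and at 7 of 149 5' UTR only peaks (4.70%, 2.29 to 9.38), and at 9.16% of all protein-coding genes. Sclt1, Ngly1, Aasdhppt, Cep76, Txndc17 and Dcun1d5 were among them. The median fold of those 21 start codon peaks was 3.43. The strand of the fragments is not given in the sources used here, so signal of the 2 neighbouring transcripts cannot be told apart. Besides Ngly1 and Oxsm, 3 peaks were marked for a gene pair in which both genes met the rule: Asf1a and Mcm9 (3.36-fold), a histone chaperone and a helicase of DNA repair, Rab24 and Prelid1 (2.93-fold), and Dap3 and Ash1l (2.18-fold). A peak marked for the start codon of one gene and the 5' UTR of another was counted in the start codon class. This applied to the pairs of Ngly1, Asf1a and Rab24. The part of this choice in the difference in bidirectional layouts was not tested. A further 3 members were also marked for a gene in which the peak did not meet the rule. The peak of Yy2 (5.08-fold) also lay over the stop codon of Mbtps2, that of Oxnad1 (3.38-fold) over the stop codon of Dph3 and that of Mmd (2.59-fold) in the 3' UTR of Gm45716. The gene behind these 3 signals cannot be told apart either.

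Many of the peaks held intron bases. Such bases were counted as bases of the gene body outside every exon of its coding transcripts. They were held by 117 of the 261 peaks (44.8%, 38.9 to 50.9), 51 start codon peaks (45.5%) and 66 5' UTR only peaks (44.3%). With 1 coding transcript per gene the share was 43.3%. Windows of 230 bases were centred 238 bases downstream of the start of all 21670 protein-coding genes. Of these, 70.8% held bases outside the exons of 1 transcript per gene. A peak had to touch a 5' UTR or start codon to be counted, whereas a window could lie wholly in an intron. The shares of peaks and windows are therefore not like for like. Among the other peaks of the table, intron bases were held by 53.6% of coding-sequence, 14.5% of stop codon and 1.30% of 3' UTR peaks. In 60 peaks (23.0%, 18.3 to 28.5) intron bases outnumbered exon bases, and 87 of 260 (33.5%) spanned the first splice donor. Only 3 of 260 touched more than 1 exon of the reference transcript. The peak of Zfp952 had 33 exon and 174 intron bases with its summit in the intron, that of Mpp5 23 and 188, and that of Kif26b 50 and 146. Peaks with more intron than exon bases had a median fold of 3.75 (quartiles 2.70 and 4.53) and a median background of 9, whereas the 128 peaks made of exon alone had 2.69 (2.06 and 3.68) and 29.5. Whether nuclear precursor RNA or DNA contributed to these peaks was not tested. The library protocol is worded for DNA after the immunoprecipitation.

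Fold enrichment also differed with the genomic distance of the peak centre from the transcript start. Peaks centred from 100 to under 200 bases from the start had the highest medians, 5.24 in 30 start codon peaks and 4.57 in 30 5' UTR only peaks. From 200 to under 300 bases the medians were 2.60 in 36 and 2.59 in 46 peaks. The median background moved with them, from 5.00 to 23.0, and the median first exon from 236.5 to 435.5 bases. The part of background in the difference was not tested.

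In 25 peaks, 16 of them start codon peaks, a later exon was the exon most overlapped. Their centres lay from 476 bases (Arf6) to 114174 bases (Pcbp3) from the transcript start, within 1000 bases in 4 peaks and farther in 21. Haus3 was the highest, with all 349 bases in exon 2 around its start codon. Mylpf, the regulatory myosin light chain of fast skeletal muscle, had its start codon in exon 2, 12 bases downstream of the summit, in a peak of 4.22-fold (2.84 to 6.06, 27 fragments). That peak held 77 exon and 110 intron bases. Others in a later exon were Chmp3 (6.10-fold, 13 fragments), a subunit of the ESCRT-III membrane-scission complex, the kinase Pak3 (5.82-fold, 21 fragments) and the kinetochore protein Cenpf (3.80-fold, 20 fragments). Intron bases also outnumbered exon bases in Pak3 (129 and 88), but not in Chmp3 (38 and 159) or Cenpf (0 and 200). Later-exon peaks were less GC rich, with a median of 48.0% against 67.7% in the first exon.

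The sequence of 5' end peaks was GC rich. The median GC content was 67.5% (quartiles 56.2 and 73.0) in start codon peaks and 65.9% (53.2 and 73.8) in 5' UTR only peaks. It was 59.1% (49.1 and 68.3) in windows of 230 bases centred 238 bases downstream of the start of all 21670 protein-coding genes, and 46.7% in coding-sequence, 44.4% in stop codon and 40.6% in 3' UTR peaks. The ratio of observed to expected CpG was 0.866 and 0.801 in the classes and 0.575 in the gene windows. A GC content of at least 50% with a CpG ratio of at least 0.6 was met by 190 of 261 peaks (72.8%, 67.1 to 77.8) and 46.1% of gene windows. Expressed genes were not separated from silent ones in the windows, and the part of that choice in the difference was not tested. Mon2 had the most GC-rich peak, at 82.6%, and Haus3 (36.7%) and Olfr810 (34.5%) were among the AT-rich ones.

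**Figure D4:**
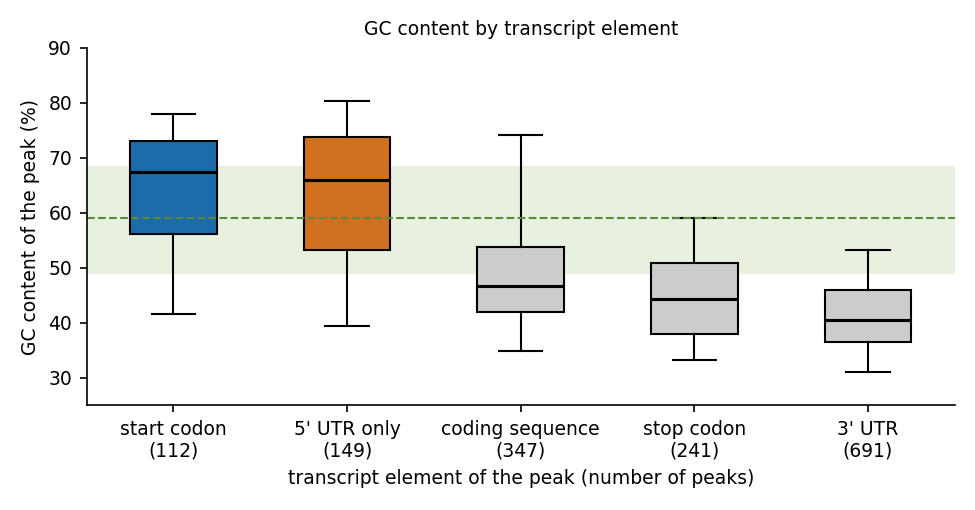
GC content of peaks by transcript element, with the number of peaks in brackets; boxes span the quartiles, lines inside are medians and whiskers reach the 5th and 95th percentiles. The dashed line and band are the median, 59.1%, and quartiles of windows at the same distance from the start of all protein-coding genes; the medians of both 5' end classes, 67.5% and 65.9%, lie above it.

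The m6A consensus was not denser in 5' end peaks than at the same place in all genes. The form searched was GGAC followed by A, C or T, on the strand of the gene, whose matches cannot overlap. It occurred 226 times in the 261 peaks, or 3.23 per kb (95% Poisson interval 2.82 to 3.67), and 4.07 per kb in the gene windows. At least 1 match was held by 59.8% (53.7 to 65.5) of peaks and 58.5% of windows. All windows had 230 bases and peaks 186 to 691, so shares of this kind, unlike the densities, are not at equal length. Start codon peaks had 2.86 per kb (2.28 to 3.54) and 5' UTR only peaks 3.49 (2.94 to 4.12). The wider consensus DRACH gave 12.6 per kb in the peaks and 15.7 in the windows, with at least 1 match in 90.8% and 94.8%. Against the other peaks of the table the 2 forms differed in direction. The first form had 2.72 per kb in coding-sequence peaks, 2.91 in stop codon peaks and 2.04 in 3' UTR peaks, all under the 3.23 of 5' end peaks, whereas DRACH had 17.6, 20.5 and 18.9, all above their 12.6. Matches lay in the 5' UTR in 124 of 226 cases, in coding sequence in 38, in introns in 44 and outside the transcript in 20. A match describes letters, and methylation was not measured.

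The match nearest the summit is shown for some leading peaks of each class, with the motif in capitals, in GRCm38 and on the strand of the gene.
Haus6 (chr4:86611785-86611809, minus strand): gctcggcccgGGACTccgctttcga
Lrif1 (chr3:106685086-106685110, plus strand): atggctggcgGGACCcgcgcaagga
Haus3 (chr5:34168055-34168079, minus strand): gaagttcttaGGACCtgtaaaactt
Zfp229 (chr17:21733822-21733846, plus strand): tctgggccaaGGACActgcccaggg
Zfp317 (chr9:19622163-19622187, plus strand): ccctgtgtttGGACCctcctgttcc
Mon2 (chr10:123076249-123076273, minus strand): gcagcgggagGGACCtgcccgtctg
Trip11 (chr12:101912847-101912871, minus strand): cggcgtccagGGACAtttggagagg
Cdc42bpa (chr1:179960538-179960562, plus strand): ttgccgcggaGGACTcgcccaggcg
The sites of Haus6, Lrif1 and Haus3 lay in coding sequence just after the start codon or further into the exon, and the other 5 in 5' UTRs. In Ngly1 and Mpp5, leading peaks whose sites are not shown, the nearest match lay in an intron. Among the sites shown, the offset from the summit ranged from 86 bases upstream in Zfp317 to 99 downstream in Haus3. It was smallest in Lrif1, at 25 upstream. Among sites not shown, it was 88 downstream in Ngly1, 127 upstream in Mpp5 and 87 upstream in Zfp952. Mtfmt, Coa6, Sclt1, Lpar4 and Mpp6, high by fold, held no match in their peaks.

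Some genes with a 5' end peak carried YTHDF2 peaks elsewhere as well. Of 259 genes, 74 (28.6%, 23.4 to 34.4) had a further peak in the table outside the 5' end: 45 in the 3' UTR, 23 in coding sequence and 21 over the stop codon, some in more than 1 place. Genes with a 5' end peak had a median length of 45.9 kb, against 30.7 kb in the other matched genes of the table. Among those other genes, 142 of 1025 (13.9%, 11.9 to 16.1) had 2 or more peaks in the table. Over the gene body the shares were 64.1% and 46.9%. By gene length, the table shares were 32.3% against 11.6% under 20 kb and 33.0% against 16.2% from 20 to 60 kb. In longer genes they were 22.9% and 13.8%. A gene with more peaks can enter the first group more easily, and the difference was not tested. In 45 of the 74 genes the highest other peak exceeded the 5' end peak, and the median ratio of 5' end to other was 0.893. In the 49 genes with exactly 1 peak of each kind it was 0.937, with the 5' end peak higher in 21. Mbtps2, a protease of regulated intramembrane proteolysis, counts among them through the peak it shares with Yy2, and without it the median over 73 genes was 0.892. Zbtb11 and Pcnp share their further peak, at 2.95-fold, which entered the ratios of both (0.850 and 1.70).

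In the 6 genes with most further peaks, the highest 5' end peak stood between 1.80-fold and 3.29-fold. Phip, a bromodomain protein that binds chromatin, had a start codon peak of 1.80-fold (1.35 to 2.37), with 49 fragments over a background of 24.0. It had 23 further peaks. One of them, over an annotated stop codon 59.5 kb from the gene's start, reached 9.33-fold (6.41 to 13.2) with 30 fragments over 2.00. Rock2, a kinase of actomyosin contraction, had 1.97-fold (1.67 to 2.31) at the start codon. That peak had 152 fragments over a background of 69.0, the most fragments of any Rock2 peak. The 18 further peaks of Rock2 ran from 1.5-fold to 5.56-fold. Ghr, the growth hormone receptor, had 2.17-fold in the 5' UTR and 29 further peaks, and Mtdh 1.90-fold and 15. Brinp3 had 157 further peaks over a gene of 407713 bases, and its 5' UTR peaks stood at 3.10-fold and 1.80-fold. Luc7l2 was the sole gene with 3 5' end peaks, at 3.29-fold (2.77 to 3.89), 2.36-fold (2.00 to 2.75) and 2.63-fold (2.16 to 3.17), on first and second exons of different transcripts. It had 19 further peaks. Apc (2.66-fold and 3.98-fold), B130006D01Rik (6.77-fold and 4.23-fold) and Zfand5 (1.82-fold and 2.17-fold) had a pair of 5' end peaks each.

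**Figure D5:**
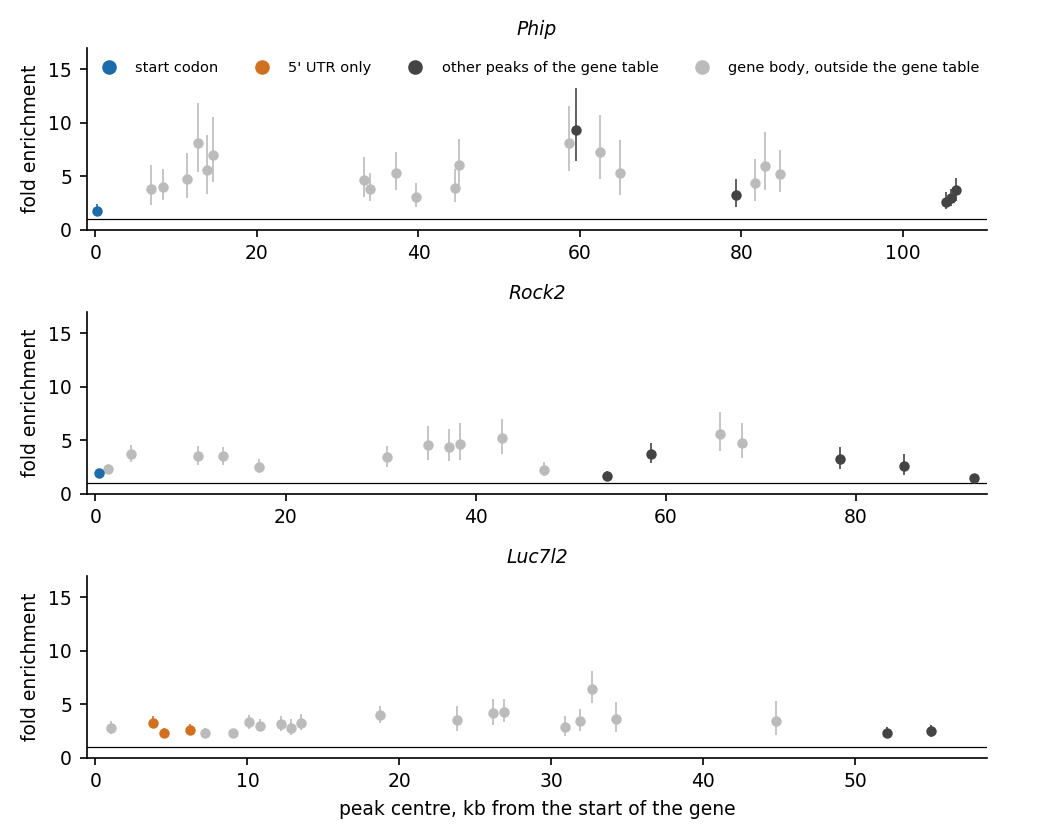
Fold enrichment of every peak along Phip, Rock2 and Luc7l2 against the distance of its centre from the start of the gene in kb; bars are 95% Poisson counting intervals and the line marks a fold of 1. The start codon peaks of Phip (1.80-fold) and Rock2 (1.97-fold) lie below most of the peaks that follow them, and Luc7l2 has 3 5' UTR only peaks near its start. The start codon peak of Phip has 49 fragments over a background of 24.0, and that of Rock2 has 152 over 69.0.

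The lists of functional groups looked up held 36 of the 259 genes, and each list was read against the 20.2% of table genes (259 of 1285) that had a 5' end peak. Among zinc finger genes 9 of 43 table genes had one (20.9%), led by Zfp952, Zfp229 and Zfp317. Among genes of ubiquitin conjugation 7 of 33 had one, led by the poly-ADP-ribose-directed ligase Rnf146 (4.23-fold), Rnf4 (4.01-fold) and Fbxo4 (3.82-fold). Oxidative phosphorylation had 3 of 12, Coa6, Cox16 (3.53-fold) and Cox7c (3.39-fold), all of cytochrome c oxidase. Splicing factors had 4 of 21, with Luc7l2, Rbm26 (3.0-fold) and Hnrnpc (2.53-fold) at the top. Translation initiation factors had 2 of 9, Eif2s2, the beta subunit of eIF2 (4.64-fold), and the cap-binding protein Eif4e2 (1.96-fold). None of 11 proteasome genes in the table, of 4 RNA helicases and of 4 deadenylation genes had a 5' end peak. Ribosomal protein genes, whose transcripts start with a pyrimidine tract, had 1 of 9, Rps9 (3.01-fold), and mitochondrial ribosomal proteins 1 of 10, Mrpl24 (2.30-fold). A transcript start of C followed by 4 pyrimidines, as in that tract, was annotated for 1 of 109 start codon and 3 of 149 5' UTR only transcripts, against 2.38% of all genes.

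Markers of the labelled cell type were looked up in the gene table. Of 22 myotube genes 4 (18.2%) had a peak there, Neb, Tnnt1, Tnni2 and Mylpf, against 1285 of 21924 genes (5.86%), expressed or not. Of these 4 Mylpf had one at its 5' end, beside 20.2% of all table genes. None of 21 markers of myoblasts, neurons, hepatocytes, immune or endothelial cells had a peak in the table, and these lists held 3 to 6 genes each, too few for a count of 0 to say much. A peak list holds no expression level, so these counts do not measure the makeup of the culture.

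Copies elsewhere in the genome could affect 5 members, whose sequence matched at least 1 further place at 95% identity or more over at least 90% of its length. Mmp16 (3.93-fold, 181 places in all) and Dpy19l1 (3.17-fold, 208) lay on repeats, and Gm8332 (3.91-fold), Smarca5 (1.82-fold) and Ppig (4.13-fold) had 3, 3 and 2 places. How reads with several places were handled is not given in the sources used here, so their values are uncertain.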

How the data were processed

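Material recovered with an anti-YTHDF2 antibody and input material of C2C12 myotubes were sequenced, 1 library each, so neither had a replicate. Whether DNA was removed or RNA was reverse transcribed is not given in the sources used here. Bowtie (alignment to mm10) and MACS (peak calling) were used, per the design text in the labels. DiffBind, HOMER, Picard, deepTools, Trim Galore and FastQC are listed too, per the submitters' processing notes, with settings not given in the sources used here. Per the file headers, the deposited list holds, for each peak, a pileup signal (at its summit), a fold enrichment that is a linear ratio, and the −log10 of p-value and q-value. The authors' deposited table of elements gives the number (count) and percent of peaks per element, 111 over start codons and 145 in 5' UTRs. The deposited Gene Ontology table gives counts of peak genes per term with their symbols, of which only the symbols were used.

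All pileups were multiples of 0.9, and 1 step was read as 1 RIP fragment. The background was computed from pileup and fold. Intervals on fold are exact 95% Poisson intervals of RIP fragments with the background held fixed, and shares carry Wilson 95% intervals; both cover counting error only. Library depth is unknown. Elements, introns and starts came from GENCODE M21 with at least 1 base of overlap, and sequence from GRCm38, the files' build. Of 265 qualifying rows, 262 were matched by symbol, 2 by synonym and 1 by position. Copies were searched with BLAST+ 2.17.0, and the rest was done in Python 3.11.15 with pandas 2.3.3, scipy 1.17.1 and pysam 0.24.0. Overlap, motif and interval code was tested on simulated data. Members, gene lists and alternatives were chosen with earlier results of these data known. Named genes were, per class, the 10 of highest fold, 5 of smallest q-value and 3 of lowest fold, genes with several 5' end peaks, the 6 with most further peaks and up to 3 per list; a few others, such as those in later exons, were chosen after their values were seen.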

Additional observations from a re-analysis of the deposited data

How the results depend on the processing

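Of 51 comparisons of 9 results with 8 alternative settings, 39 stayed within the 95% interval of the reported value, or within 1.5 times for counts. Restricting to a fold enrichment of 4 or more, which selects on the value itself, left 84 peaks with class medians of 5.52 (start codon) and 5.03 (5' UTR only), a median GC content of 63.0%, intron bases in 61.9%, further peaks in 13.1% of genes and 10 listed genes in place of 36. A q-value of 1e-05 or less lowered the share of genes with a further peak to 23.0%. Requiring the peak centre to lie in the element left 170 peaks, of which 5.29% reached upstream and 28.8% held intron bases. With 1 coding transcript per gene 21.8% reached upstream. Leaving out peaks with further copies or no coding transcript, an alternative chosen after seeing the data, gave 255 peaks and no such shift. The unknown depth and the single library a group limit all values. No paired analysis was possible because each group holds 1 library and no test was run.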

Other observations

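Applying the same rule with GENCODE M21 to all 9271 peaks gave 290 peaks at 5' ends of protein-coding genes. Of these, 260 were members, 2 were in the authors' table as another class and 28 were outside it. Median fold in the 28 was 3.58, with quartiles of 2.68 and 4.79, and 20 held more intron than exon bases. Heg1, a transmembrane protein of endothelial junctions, had the highest at 8.28-fold (5.71 to 11.6, 31 fragments), followed by the RNA-binding protein Tial1 at 5.88-fold (3.89 to 8.55) and the kinetochore protein Zwilch at 5.67-fold (3.16 to 9.54, 12 fragments). Alas2, the erythroid enzyme that starts haem synthesis, stood at 5.45-fold (3.58 to 8.0). The Heg1 peak lay wholly in exon, with 272 bases, but the other 3 touched their genes' exons only slightly. Tial1 had 3 exon and 233 intron bases and Zwilch 8 and 178. Alas2 had 22 exon and 0 intron bases, with the rest of its peak outside the gene's coding transcripts.

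Among 17 Gene Ontology groups of the authors' table, picked after their counts were seen, the share of table genes with a 5' end peak ranged from 12.5% for mRNA processing (5 of 40) to 41.7% for the centrosome (10 of 24, Wilson interval 24.5 to 61.2), against 20.2% of all table genes. The centrosomal members included Sclt1 (8.87-fold), Cep76 (7.72-fold), the scaffold Akap9 (6.68-fold), the dynein light chain Dynlrb1 (6.53-fold), Cep170 (4.85-fold), Apc (3.98-fold), the dynein adaptor Hook3 (2.57-fold), Rock2 (1.97-fold) and Tnks2 (1.90-fold). The median over the 10 was 4.42 and that of all genes with a 5' end peak 3.28. The cytoskeleton group, which contains the genes named here, had 29 of 102 (28.4%, 20.6 to 37.8), the mitochondrion 16 of 113 (14.2%, 8.91 to 21.8) and the extracellular region 9 of 62 (14.5%, 7.83 to 25.3). No enrichment was tested.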
